A study of Mus musculus with 150 samples.

Results

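The genes Hcn2, Hcn3 and Hcn4 encode subunits of the hyperpolarization-activated, cyclic nucleotide-gated channels, the pacemaker channels. They were taken by name and are 3 of the 54082 genes in a table of single mouse somatosensory neurons, of which 34741 had a count in any cell, these 3 among them. No other subunit gene is analysed here, so every share below is a share of these 3 genes and not of all Hcn RNA. RNA of 150 neurons from CD1 mice was sequenced by Smart-seq, which copies whole polyA transcripts, and each sample was 1 cell. Each cell was labelled by the skin its neuron served: 45 hairy, 1 both and the rest glabrous (hairless). The cells came from 10 litters, 33 cells of 2 litters at postnatal day 4 and the others of 8 litters at day 5, on 2 plates, with no treatment or mutation in the labels. Joined names such as E_F_G stand as 1 litter each in the labels and were taken so, and whether they pool several litters is not known. The sources used here do not say how a neuron was tied to its skin, nor how many animals a litter stands for.

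HCN channels open when the membrane becomes more negative and carry a mixed sodium and potassium current, called Ih, that drives the cell back towards firing threshold. Subunits assemble as tetramers and differ in how fast they open and in how strongly cyclic AMP, which binds their C-terminal domain, moves their opening. HCN2 and HCN4 respond strongly to cyclic AMP, HCN3 responds little, and HCN4 is best known as the slow channel of the cardiac pacemaker. In sensory ganglia, HCN2 is known for its part in repetitive firing and inflammatory pain. Nefh, the heavy neurofilament gene, marks large myelinated neurons, so it served as the axis along which the 3 genes were compared.

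In mm10, per the GENCODE annotation, Hcn2 lies on chromosome 10 at 79716634 to 79736108 on the plus strand, Hcn3 on chromosome 3 at 89146074 to 89160196 on the minus strand, and Hcn4 on chromosome 9 at 58823412 to 58863175 on the plus strand. All 3 are protein-coding, with 9, 8 and 8 exons in the longest coding transcripts, whose lengths are 3195, 4002 and 6118 bases for Hcn2, Hcn3 and Hcn4. The 250 bases before the RefSeq start sites of Hcn2 and Hcn4 (GRCm38.p6, plus strand, chr10:79716384-79716633 and chr9:58822699-58822948) are shown because these genes behaved differently along the Nefh axis. The RefSeq start of Hcn4 lies upstream of the GENCODE gene start. Hcn3 has no entry in the promoter table.
Hcn2: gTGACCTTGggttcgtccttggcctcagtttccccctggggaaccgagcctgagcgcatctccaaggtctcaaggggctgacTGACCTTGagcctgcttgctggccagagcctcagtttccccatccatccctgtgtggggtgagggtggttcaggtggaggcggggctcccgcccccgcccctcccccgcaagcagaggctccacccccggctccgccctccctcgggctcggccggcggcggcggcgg
Hcn4: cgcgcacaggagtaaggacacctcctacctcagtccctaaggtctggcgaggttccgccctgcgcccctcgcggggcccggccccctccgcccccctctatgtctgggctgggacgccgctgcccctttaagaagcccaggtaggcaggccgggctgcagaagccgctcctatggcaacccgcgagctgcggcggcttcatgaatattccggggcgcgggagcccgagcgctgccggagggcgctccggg
Capitals mark the letters TGACCTTG, which read CAAGGTCA on the other strand, a half-site of the kind that oestrogen-related receptors and other orphan nuclear receptors are known to bind. The motif was chosen after the Hcn2 sequence had been read. Searched on both strands, it stood 2 times in the Hcn2 window, beginning 249 and 168 bases before the start site, and 0 times in the Hcn4 window. Of 32851 promoter windows of this length, 438 (1.33%) held it at least once and 4 (0.0122%) at least 2 times. GC content was 70.4% in the Hcn2 window and 71.2% in the Hcn4 window, against a median of 52.4% over all windows. A match of letters is a description of the sequence and does not show a binding site.

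Levels are given as CPM, counts scaled to a common total of a cell or of a sum of cells. Totals ran from 395811 to 1053854 counts per cell, so 1 count is worth about 1 to 3 CPM. A cell was called Nefh-high at 500 CPM or more of Nefh, which left 46 Nefh-low cells, and the other cells were Nefh-high. The threshold was set with Nefh medians of cell groups from earlier work known. It fell in a gap: the 3 cells just above it had 623, 649 and 650 CPM and the 3 just below it had 377, 330 and 305 CPM. Of the 20 cells between 250 and 1000 CPM, 13 lay above and 7 below it. Nefh chose the classes and was not tested. The median total was 749192 counts in Nefh-high and 711181 in Nefh-low cells.

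The neuronal label held for 140 of the 150 cells, in which the summed level of Tubb3, Snap25, Rbfox3, Uchl1 and Prph was at least 4475 CPM. The other 10 cells, all Nefh-low, 3 hairy and 7 glabrous from litters E_F_G, I, L, O and P_Q, had at most 2515 CPM of it. Their median of summed Schwann cell markers (6 of 6 in the table) was 10242 CPM, against 3550 CPM in the other Nefh-low cells and 1472 CPM in Nefh-high cells. The medians of summed satellite glia markers were 5060, 1842 and 1362 CPM in the same order, and those of fibroblast markers 973, 321 and 114.1 CPM. The sums ranged from 53.7 to 10124 CPM for Schwann cells and from 99.4 to 9012 CPM for satellite glia in Nefh-high cells, and from 363 to 40711 and 102.9 to 22530 CPM in Nefh-low cells. In the 10 cells, Hcn2 had a count in 3, Hcn3 in 3 and Hcn4 in 2, and 3 cells had no count of any of them. The tests between the Nefh classes are therefore given with and without these cells, a choice made after seeing the data, while levels and shares per length include them. The part of other cells' RNA in the differences below was not tested beyond that and the covariate named further on.

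Hcn2 was the member that followed Nefh. In single cells its median was 15.6 CPM in Nefh-high and 3.89 CPM in Nefh-low neurons, or 5.25 CPM in the Nefh-low neurons without weak neuronal RNA. Hcn2 counts were found in all Nefh-high cells but 1 (99.04%, exact Clopper-Pearson 95% interval 94.8 to 99.98) and in 29 of 46 Nefh-low cells (63.04%, 47.5 to 76.8). With every cell thinned to 395811 counts the shares were 97.1% in Nefh-high and 60.9% in Nefh-low cells. All such intervals treat the cells as independent draws and leave out the spread between litters, since the cells of a litter are not replicates. The counts are of reads, which are not separate molecules.

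The litter was the replicate for tests. Counts were summed per litter and class in the 7 litters that had 2 or more cells in both classes. Hcn2 levels of the 7 Nefh-high sums had a lowest value of 15.7, a median of 25.9 and a highest of 37.8 CPM, against 2.98, 4.30 and 9.88 CPM in the Nefh-low sums. Every Nefh-high sum lay above every Nefh-low sum, and the smallest within-litter gap was that of litter E_F_G, with 15.7 CPM in Nefh-high and 6.09 CPM in Nefh-low neurons. The Nefh-low levels rest on 10 to 39 Hcn2 counts per litter and the Nefh-high levels on 35 to 472. The means were 26.5 ± 8.76 CPM in Nefh-high and 5.15 ± 2.31 CPM in Nefh-low neurons (SD, n = 7 litters). edgeR's quasi-likelihood test, with the litter as a block, gave a log2 change of 2.29 ± 0.31 (SE) and a Benjamini-Hochberg adjusted p of 0.000966, a 4.89-fold difference, higher in 7 of 7 litters. Hcn2 was the 1 of 3 members called, where 22.7% of the 13135 genes tested were called, 11.6% as higher and 11.2% as lower. Without the weakly neuronal cells the log2 change was 2.17 ± 0.27 (adjusted p = 0.000455 by edgeR).

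The Hcn2 difference had the same sign on each plate and in each skin, at lower power. The log2 change was 2.20 in the 3 litters of plate 1 (adjusted p = 0.0653 by edgeR, 4.41% of genes called) and 2.44 in the 4 litters of plate 2 (adjusted p = 0.0201, 9.29% called). In hairy cells alone it was 1.62 (edgeR, 6 litters, adjusted p = 0.0748, 7.0% called) and in glabrous cells alone 2.88 (6 litters, adjusted p = 0.218, 0.279% called), both with sums of as little as 1 cell. With the level of Schwann, satellite glia and fibroblast markers as a covariate it was 2.19 (adjusted p = 0.0230 by edgeR).

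Hcn3 was found in every Nefh-high cell and in every Nefh-low cell with clear neuronal RNA (36 cells). Over all Nefh-low cells it was found in 39 of 46 (84.8%, exact 95% interval 71.1 to 93.7). Its median per cell was 33.9 CPM in Nefh-high and 43.2 CPM in Nefh-low neurons. The 7 litter sums of Hcn3 had a lowest, median and highest level of 32.2, 36.9 and 50.04 CPM in Nefh-high neurons and 29.7, 43.4 and 65.6 CPM in Nefh-low neurons. The groups overlapped, and Hcn3 was lower in Nefh-high neurons in 4 litters and higher in 3. The log2 change of -0.29 ± 0.16 (SE) did not pass the threshold (adjusted p = 0.214 by edgeR).

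Without the weakly neuronal cells, Hcn3 was lower in Nefh-high neurons in 7 of 7 litters, at a mean of 38.2 ± 5.68 CPM in Nefh-high and 52.1 ± 12.7 CPM in Nefh-low neurons. The log2 change was then -0.40 ± 0.13, with an adjusted p of 0.0472 by edgeR, where 23.8% of 12944 genes were called. In litters E_F_G and P_Q the gap was under 2 CPM, with 35.9 and 39.3 CPM in Nefh-high against 37.4 and 39.9 CPM in Nefh-low neurons. In litters M and O it was widest, with 36.9 and 37.8 CPM in Nefh-high against 65.6 and 66.5 CPM in Nefh-low neurons. The Nefh-high sum of litter M was 2 cells. The Hcn3 difference thus rests on leaving those cells out, a choice made after the data had been seen.

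No difference between the classes was called for Hcn4. It had counts in 90 Nefh-high cells (86.5%, exact 95% interval 78.4 to 92.4) and 34 of 46 Nefh-low cells (73.9%, 58.9 to 85.7), with medians of 5.58 CPM in Nefh-high and 5.64 CPM in Nefh-low cells. Thinned to 1 total, the shares were 75.0% in Nefh-high and 67.4% in Nefh-low cells. The litter sums of Hcn4 had a lowest, median and highest level of 5.60, 6.07 and 8.93 CPM in Nefh-high neurons and 4.30, 8.61 and 11.1 CPM in Nefh-low neurons, and the groups overlapped. Hcn4 was higher in Nefh-high neurons in 3 litters and lower in 4, and the log2 change was -0.15 ± 0.31 (adjusted p = 0.761 by edgeR). Without the weakly neuronal cells it was -0.33 ± 0.29 (adjusted p = 0.452 by edgeR), lower in 5 litters and higher in 2. Over all cells the estimate turned positive, 0.29, with the Nefh threshold at 250 CPM, so the sign of the Hcn4 difference is not settled.

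**Figure D1:**
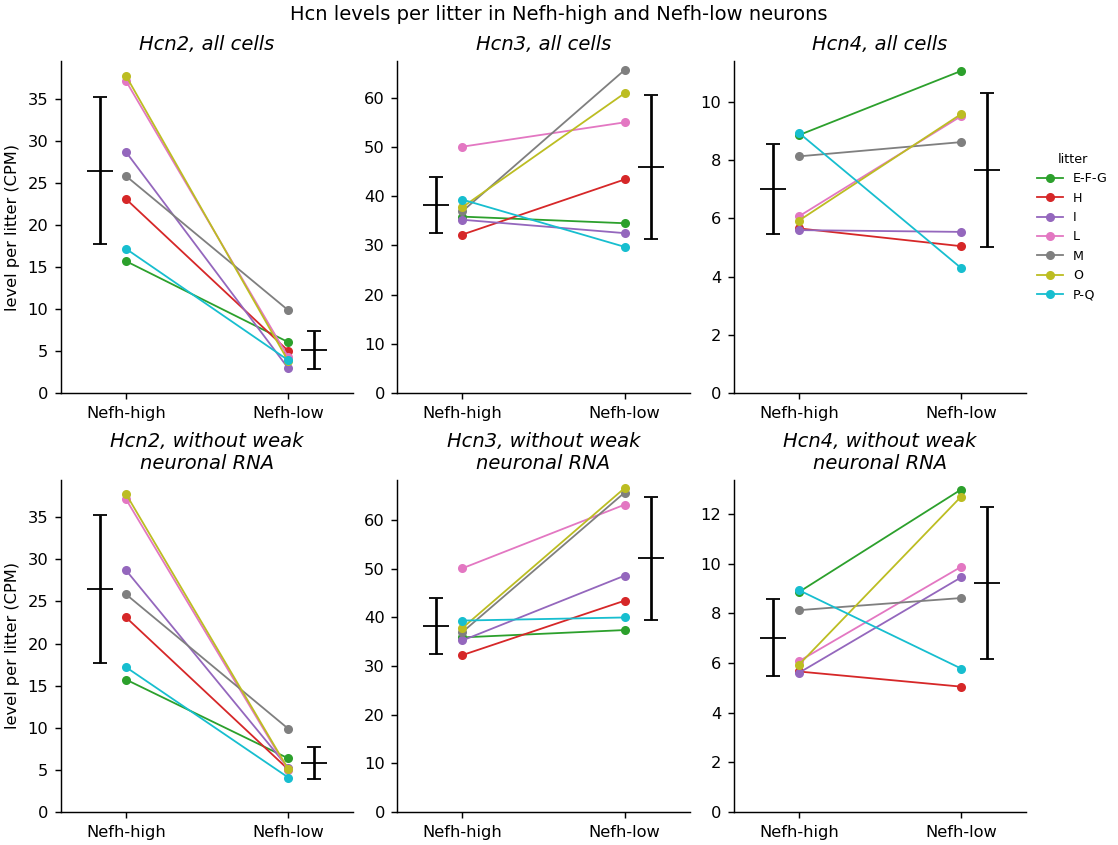
Levels of Hcn2, Hcn3 and Hcn4 (CPM, linear axes from 0) in the Nefh-high and Nefh-low sums of 7 litters, 1 coloured line per litter, with the mean and SD in black beside each class. The upper row holds all cells and the lower row leaves out the 10 cells with weak neuronal RNA. Hcn2 lies higher in Nefh-high neurons in 7 of 7 litters in both rows, and Hcn3 lies lower in 7 of 7 in the lower row.

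The balance of the 3 genes shifted with the class. A ratio of 2 genes needs no transcript length when it is compared between classes, and it was computed per litter as log2 of (CPM + 1) over (CPM + 1). The log2 ratio of Hcn2 to Hcn3 averaged -0.56 ± 0.43 in Nefh-high and -2.94 ± 0.48 in Nefh-low neurons (SD, n = 7 litters), a difference of 2.38. The log2 ratio of Hcn2 to Hcn4 averaged 1.73 ± 0.70 in Nefh-high and -0.50 ± 0.52 in Nefh-low neurons, a difference of 2.24. Both were higher in Nefh-high neurons in 7 of 7 litters, and each gave p = 0.0156 in an exact two-sided sign-flip permutation test, the smallest p that 7 litters allow, or 0.0234 after Benjamini-Hochberg adjustment over the 3 ratios. The log2 ratio of Hcn3 to Hcn4 averaged 2.30 ± 0.33 in Nefh-high and 2.44 ± 0.43 in Nefh-low neurons, and it was higher in 3 litters and lower in 4 (exact permutation p = 0.422, also 0.422 adjusted). Without the weakly neuronal cells the differences were 2.40 for Hcn2 to Hcn3, 2.30 for Hcn2 to Hcn4 and -0.10 for Hcn3 to Hcn4 (adjusted p = 0.0234, 0.0234 and 0.594 by the exact permutation test).

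Levels of different genes were set side by side per kilobase of the longest coding transcript. The sources used here do not say if the authors scaled their counts for length, so these values hold only for counts that were not scaled. In Nefh-high neurons the levels per length were 8.30 ± 2.74 CPM per kilobase for Hcn2, 9.54 ± 1.42 for Hcn3 and 1.15 ± 0.252 for Hcn4 (SD, n = 7 litters). In Nefh-low neurons the levels per length were 1.61 ± 0.722, 11.5 ± 3.64 and 1.25 ± 0.433 CPM per kilobase for Hcn2, Hcn3 and Hcn4. Hcn2 and Hcn3 were thus near each other in Nefh-high neurons, within 1 SD, while Hcn3 stood apart from the others in Nefh-low neurons. Hcn4 had the lowest mean per length in both classes, but in the Nefh-low sums of litters L and O it exceeded Hcn2, at 1.55 against 1.35 and 1.56 against 1.20 CPM per kilobase.

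As a share of the 3 genes per length, Hcn2 made up 42.9% ± 7.91 in Nefh-high and 11.4% ± 3.39 in Nefh-low neurons. Its share per litter ran from 32.1% to 53.2% in Nefh-high and from 6.67% to 15.5% in Nefh-low neurons, with no overlap. Hcn3 made up 50.8% ± 5.95 in Nefh-high and 79.8% ± 4.80 in Nefh-low neurons, and Hcn4 6.32% ± 2.17 in Nefh-high and 8.89% ± 2.80 in Nefh-low neurons. In single cells, Hcn2 exceeded Hcn3 per length in 37 Nefh-high and 3 Nefh-low cells. All 3 genes had counts in 89 Nefh-high (85.6%) and 24 Nefh-low cells (52.2%), or 66.7% of the 36 Nefh-low cells with clear neuronal RNA.

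**Figure D2:**
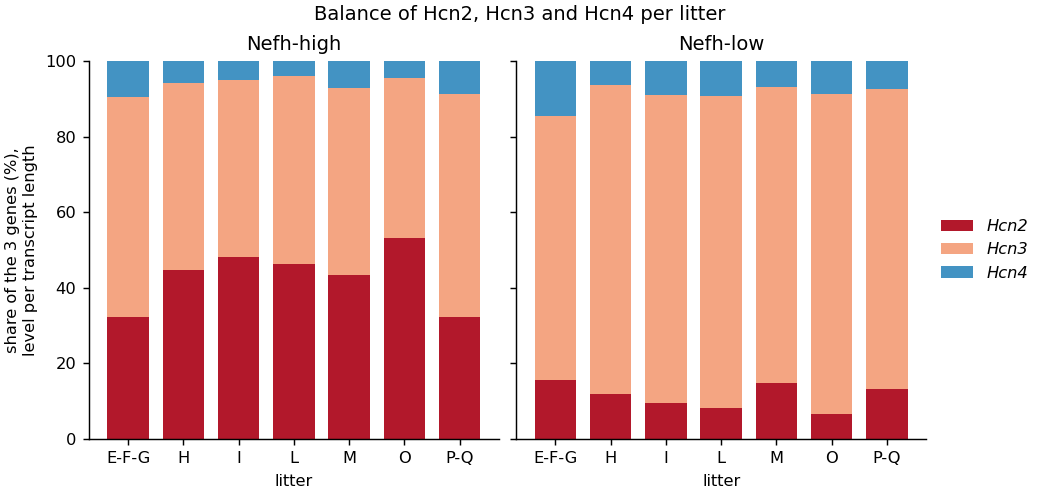
Share of Hcn2, Hcn3 and Hcn4 (percent of their summed level per kilobase of transcript) in each of 7 litters, with Nefh-high sums left and Nefh-low sums right, 1 bar per litter. The Hcn2 share is 32.1% or more in every Nefh-high bar and 15.5% or less in every Nefh-low bar.

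Within the classes the members differed further by the leading receptor or marker gene of the cell. Nefh-high cells were divided by the highest of a set of growth factor receptor genes that mark sensory neuron classes, of which Ntrk3, Ntrk2 and Ret are given here, and Nefh-low cells by which of Mrgprd, Calca and Tafa4 was highest at 500 CPM or more. These groups were formed after the data had been seen and are described without a test, and many litter values rest on 1 cell. A further 9 Nefh-low cells reached 500 CPM of no marker and are left out.

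Hcn2 was highest in Nefh-high cells led by Ntrk3, the neurotrophin-3 receptor gene, at 46.96 ± 9.998 CPM (SD over 6 litters, 16 cells, all glabrous). The litters in this group ran from 29.1 to 56.02 CPM. Cells led by Ntrk2, the BDNF receptor gene, had 22.6 ± 4.20 CPM (6 litters, 17 cells), and cells led by Ret, a GDNF family receptor gene, had 20.1 ± 9.75 CPM (8 litters, 30 cells), which did not differ beyond their spread. Ntrk3-led cells exceeded Ntrk2-led cells in 5 of the 5 litters that held both, and Ret-led cells in 4 of 4.

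The Nefh-low groups had the lowest Hcn2 levels and overlapped one another. Cells led by Mrgprd, a receptor gene of non-peptidergic nociceptors, had 6.74 ± 2.25 CPM (4 litters, 7 cells). Cells led by Calca, the gene of the neuropeptide CGRP, had 5.72 ± 3.95 CPM (7 litters, 16 cells). Cells led by Tafa4, a marker of C-fibre touch neurons, had 3.84 ± 4.02 CPM (7 litters, 14 cells), with Hcn2 counts in 9 of the 14 cells.

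Hcn3 ran in another order. It was highest in Tafa4-led cells, at 70.2 ± 26.97 CPM, then 56.02 ± 19.7 CPM in Mrgprd-led, 46.5 ± 15.5 in Ntrk3-led, 36.7 ± 13.8 in Calca-led, 33.6 ± 9.66 in Ntrk2-led and 28.9 ± 7.75 CPM in Ret-led cells. Each neighbour in that order lay within the spread of the next. Calca-led cells lay below Tafa4-led cells in 5 of 6 shared litters, so Hcn3 also varied within the Nefh-low class.

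Hcn4 was highest in Ntrk2-led cells, at 11.1 ± 4.86 CPM, and in Mrgprd-led cells, at 11.1 ± 5.54 CPM. It had 8.46 ± 3.66 CPM in Ret-led and 4.17 ± 2.24 CPM in Ntrk3-led cells, so of these 3 receptor groups the one with the highest Hcn2 had the lowest Hcn4 mean. Ntrk2-led cells exceeded Ntrk3-led cells in 5 of 5 shared litters. Tafa4-led and Calca-led cells had 9.31 ± 4.30 and 8.91 ± 5.12 CPM. As shares of the 3 genes per length, Hcn2 held 54.6% ± 7.60 in Ntrk3-led cells and 7.29% ± 7.66 in Tafa4-led cells, the ends of its range over these 6 groups.

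**Figure D3:**
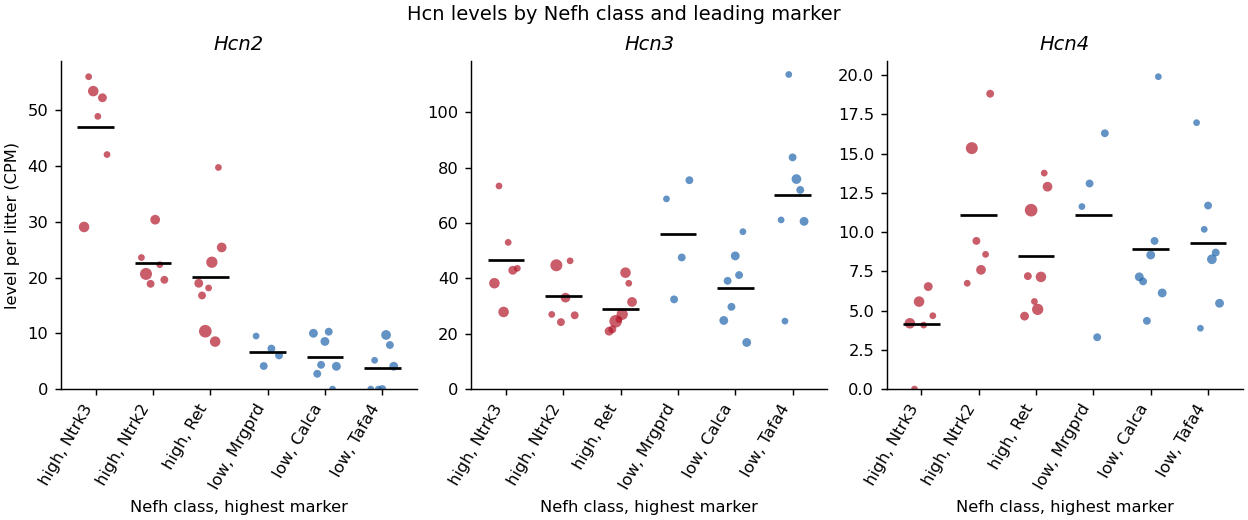
Levels of Hcn2, Hcn3 and Hcn4 (CPM, linear axes from 0) by Nefh class (red high, blue low) and highest receptor or marker gene. Each point is the sum of a litter's cells in the group, its area grows with the number of cells, and the bar is the mean over litters. Hcn2 is highest in Ntrk3-led cells, with a mean of 46.96 CPM, against 22.6 CPM in Ntrk2-led and 20.1 CPM in Ret-led cells, while Hcn3 is highest in Tafa4-led cells at 70.2 CPM.

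Correlation with Nefh was described over cells, without a test. Over 150 cells Spearman's rho with Nefh was 0.55 for Hcn2, -0.038 for Hcn3 and 0.020 for Hcn4, and Pearson's r of log2(CPM + 1) was 0.62, 0.35 and 0.098. Among 17005 genes with a count in at least 30 cells the median rho was 0.061, and 495 genes had a higher rho than Hcn2. With values centred by litter the rho of Hcn2 was 0.62. The cells were spread over 5 library batches and differed in detected genes, with which Hcn2 had a rho of 0.43 and Nefh 0.48.

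For Hcn2 the rho was lower within the classes than over all cells. The classes were cut on Nefh itself, which narrows its range within each class and can by itself lower a rho with Nefh. The part of this was not tested. Within Nefh-high cells the rho of Hcn2 with Nefh was 0.16, or 0.25 with values centred by litter, and within the Nefh-low cells with clear neuronal RNA it was 0.089 (36 cells). For Hcn3 the rho within those 36 cells was 0.37, within Nefh-high cells it was 0.013, and over the 140 cells with clear neuronal RNA it was -0.19. The r of 0.35 between Hcn3 and Nefh over all cells became -0.13 over those 140 cells, where the 10 weakly neuronal cells, 7 of them with no Hcn3 count, were left out. For Hcn4, the rho within either class was at most 0.038 once those cells were left out.

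Over single cells, rho between the members was low within each class. Few counts can lower a rho. The median level was 5.58 CPM for Hcn4 in Nefh-high cells and 5.25 CPM for Hcn2 in the 36 Nefh-low cells with clear neuronal RNA. The low values therefore do not show that the members vary independently. Within Nefh-high cells the rho between Hcn2 and Hcn3 was 0.00020, between Hcn2 and Hcn4 0.13, and between Hcn3 and Hcn4 0.11. Within the 36 Nefh-low cells with clear neuronal RNA the same values were -0.018, 0.085 and 0.092.

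**Figure D4:**
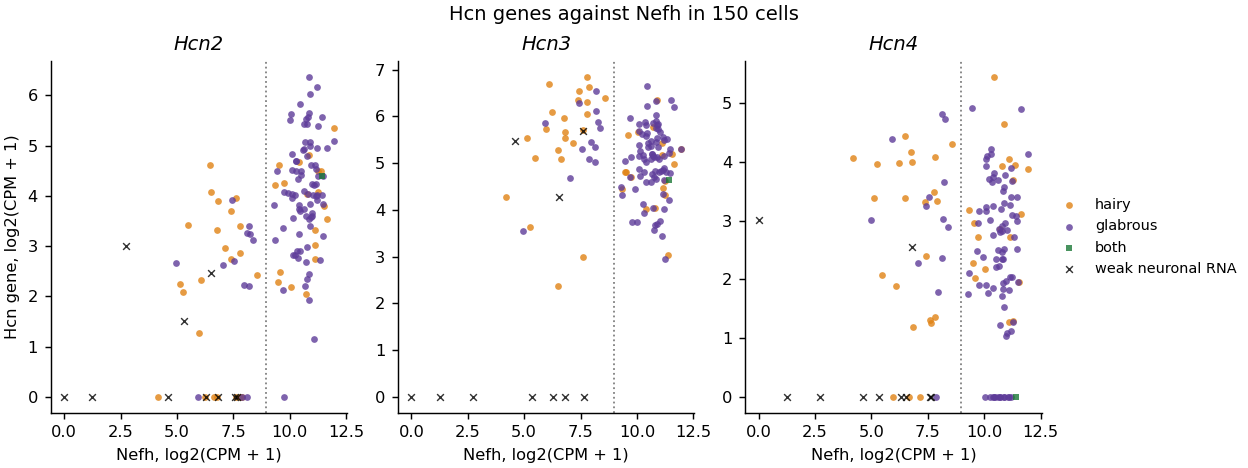
Hcn2, Hcn3 and Hcn4 against Nefh in 150 cells, both as log2(CPM + 1), coloured by skin, with crosses for the 10 cells of weak neuronal RNA and a dotted line at 500 CPM of Nefh. Hcn2 is found in all but 1 of the cells right of the line, and Hcn3 is absent left of it in 7 cells, all of them crosses.

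The genes most like each member over the 150 cells, among 9647 with a mean of at least 10 CPM, differed between members. For Hcn2 the highest rho values were those of Cables2, a Cdk5 and Abl adaptor gene (0.72), Tafa2, which encodes a secreted protein (0.69), Slc17a7, the vesicular glutamate transporter gene VGLUT1 (0.69), and the mitochondrial genes Chchd10 (0.68) and Cox5a (0.67). These 5 also ranged from 0.55 to 0.68 within Nefh-high cells. The lowest were Taldo1, a pentose phosphate enzyme gene (-0.59), the G-protein gene Gnb4 (-0.56) and the ferritin gene Ftl1 (-0.53). Slc17a7 had a median of 135.1 CPM in Nefh-high and 4.48 CPM in Nefh-low cells.

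For Hcn3 the highest were Atg9a, an autophagy gene (0.54), the adaptor gene Dok4 (0.52), Phf24 (0.51), the ATP citrate lyase gene Acly (0.50) and the scaffold gene Pick1 (0.49), and the lowest were the respiratory chain genes Atp5e (-0.41), Ndufa2 (-0.36) and Cox7c (-0.36). For Hcn4 the highest were the SNAP gene Napb (0.44), the prokineticin receptor gene Prokr1 (0.42), Fam184b (0.42), the phosphatase gene Mtmr7 (0.42) and Zfyve9 (0.41), and the lowest were the nuclear receptor gene Nr2f2 (-0.39), Rap1b (-0.35) and the creatine synthesis gene Gamt (-0.33). Within Nefh-high cells the 5 highest genes of Hcn3 ranged only from 0.23 to 0.32, and those of Hcn4 from 0.31 to 0.48.

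Genes around HCN channels were read from 4 lists in the class comparison, and their counts stand beside the 22.7% of all genes called. Cyclic AMP, which acts on HCN channels, is made by adenylyl cyclases, of which 7 of 10 passed the filter on low counts. Adcy1, a calcium-stimulated cyclase, rose to 47.1 ± 11.6 CPM in Nefh-high neurons, against 8.13 ± 4.95 CPM in Nefh-low neurons (7 of 7 litters), and Adcy8, of the same kind, rose to 11.5 ± 5.59 CPM, against 3.96 ± 3.17 CPM. Adcy5, a calcium-inhibited cyclase, fell to 12.03 ± 5.64 CPM in Nefh-high neurons, against 32.8 ± 12.9 CPM in Nefh-low neurons. Their log2 changes were 2.61, 1.66 and -1.48 (adjusted p = 0.00146, 0.0484 and 0.0216 by edgeR). The list's median log2 change was 0.95, against -0.052 over all genes. Without the weakly neuronal cells 3 of 6 were higher and 1 lower, with Adcy3 added (1.43, adjusted p = 0.0357 by edgeR) and Adcy8 at 2.66.

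Of 15 phosphodiesterases that break down cyclic AMP, 13 were tested, 1 was higher and 1 lower in Nefh-high neurons. Pde4a rose to 30.5 ± 8.19 CPM in Nefh-high neurons, against 9.22 ± 3.84 CPM in Nefh-low neurons, and Pde10a fell to 7.19 ± 3.00 CPM, against 32.5 ± 19.3 CPM. Their log2 changes were 1.68 and -2.15 (adjusted p = 0.000951 and 0.00118 by edgeR), each with the same sign in 7 of 7 litters. The list's median log2 change was -0.33. With the weakly neuronal cells left out, 12 were tested and both calls stood, Pde4a at 1.58 and Pde10a at -2.38 (adjusted p = 0.000589 and 0.000354 by edgeR), and the median was -0.014.

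Of 13 auxiliary and trafficking genes 9 were tested, and none was higher in Nefh-high neurons and 2 were lower. By edgeR 4 of the 9 had an unadjusted p under 0.05, as had 4735 of all 13135 genes tested. Nedd4l, a ubiquitin ligase gene, fell to 79.3 ± 35.4 CPM in Nefh-high neurons, against 163 ± 57.9 CPM in Nefh-low neurons (log2 change -1.12, adjusted p = 0.0190 by edgeR). Cav1, the caveolin gene, fell to 18.6 ± 17.5 CPM, against 146.3 ± 131.1 CPM (log2 change -3.06, adjusted p = 0.0471 by edgeR), and without the weakly neuronal cells its adjusted p was 0.0655 by edgeR. Cav1 is also expressed by Schwann cells and fibroblasts, whose marker medians were higher in Nefh-low cells, and their part in its level was not tested. The list's median log2 change was 0.16.

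Of 14 other channel genes with a cyclic-nucleotide-binding fold 7 were tested, all of the Kcnh potassium channel family, and 4 were higher and 1 lower in Nefh-high neurons, with a median log2 change of 1.13. Kcnh7 rose to 79.99 ± 44.3 CPM in Nefh-high neurons, against 19.97 ± 5.90 CPM in Nefh-low neurons, and Kcnh2 to 58.8 ± 19.5 CPM, against 21.7 ± 10.95 CPM. Kcnh1 rose to 32.6 ± 11.6 CPM, against 17.2 ± 9.97 CPM, and Kcnh5 to 16.7 ± 7.12 CPM, against 0.587 ± 1.14 CPM. Kcnh6 fell to 37.04 ± 12.2 CPM in Nefh-high neurons, against 158 ± 44.1 CPM in Nefh-low neurons. The adjusted p-values were 0.000654, 0.00202, 0.0114, 0.00342 and 0.000117 for Kcnh7, Kcnh2, Kcnh1, Kcnh5 and Kcnh6 by edgeR. Kcnh7, Kcnh2 and Kcnh5 were higher and Kcnh6 lower in 7 of 7 litters. These 5 genes were called in the same directions without the weakly neuronal cells, and the median was 0.90.

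Hairy and glabrous skin were compared over 7 litters that had 2 or more cells from both. Nefh-high cells made up 19 of 45 hairy cells (42.2%, exact Clopper-Pearson 95% interval 27.7 to 57.8) and 84 glabrous cells (80.8%, 71.9 to 87.8). Within litters the Nefh-high share was lower in hairy cells in 6 of 7 and equal in litter C_D, where all cells were Nefh-high. Pooled over all litters and plates, the median of summed Schwann cell markers was 3128 CPM in hairy and 1569 CPM in glabrous cells. The skins were unevenly spread over the plates, and the part of litter and plate in these medians was not tested.

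Over all neurons Hcn2 had a lowest, median and highest level of 4.94, 8.08 and 19.8 CPM in the hairy sums, against 11.6, 16.3 and 34.6 CPM in the glabrous sums. It was lower in hairy neurons in 6 of 7 litters, and the exception was C_D, with 19.8 CPM in hairy and 13.1 CPM in glabrous neurons. The means were 9.99 ± 5.06 CPM in hairy and 19.7 ± 8.27 CPM in glabrous neurons (SD, n = 7 litters). The log2 change was -1.03 ± 0.39 with an unadjusted p of 0.0270 and an adjusted p of 0.430 by edgeR, so it did not pass over all genes. Of 12852 genes, 0.0934% were called, 0.0389% as higher and 0.0545% as lower, and none of the 3 members was. An unadjusted p under 0.05 by edgeR was found for 1277 of the 12852 genes. The log2 change of Hcn2 was -0.055 in the 3 litters of plate 1 and -2.04 in the 3 of plate 2, and litter K lay on both.

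Hcn3 and Hcn4 were not called between the skins. Hcn3 averaged 41.3 ± 14.7 CPM in hairy and 37.6 ± 4.49 CPM in glabrous neurons, with a log2 change of 0.047 ± 0.16 (adjusted p = 0.951 by edgeR), higher in 3 litters and lower in 4. Hcn4 averaged 8.49 ± 4.55 CPM in hairy and 6.60 ± 2.15 CPM in glabrous neurons, with a log2 change of 0.27 ± 0.39 (adjusted p = 0.864 by edgeR), higher in 4 litters and lower in 3. Litter E_F_G had the highest hairy level of Hcn4, 16.7 CPM, against 7.91 CPM in its glabrous cells.

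The log2 ratio of Hcn2 to Hcn4 averaged 0.25 ± 0.96 in hairy and 1.41 ± 0.36 in glabrous neurons, lower in hairy neurons in 6 of 7 litters (exact permutation p = 0.0313, or 0.0938 adjusted over 3 ratios). That of Hcn2 to Hcn3 averaged -1.98 ± 1.12 in hairy and -0.98 ± 0.49 in glabrous neurons, also lower in 6 of 7 (exact permutation p = 0.0781, or 0.117 adjusted), and that of Hcn3 to Hcn4 2.23 ± 0.95 in hairy and 2.39 ± 0.36 in glabrous neurons (exact permutation p = 0.719, also 0.719 adjusted). None of the 3 ratios passed.

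The skins were also compared within a class. The receptor groups were not held fixed there, and all 16 Ntrk3-led cells, the group with the highest Hcn2, were glabrous. In Nefh-high neurons of 7 litters, in 3 of which hairy skin was represented by 1 cell, Hcn2 averaged 15.9 ± 4.69 CPM in hairy and 20.8 ± 10.8 CPM in glabrous neurons. It was higher in hairy neurons in 3 litters and lower in 4, and the log2 change was -0.25 ± 0.29 (adjusted p = 0.918 by edgeR), with 0.23 in the 4 litters of plate 1 and -1.05 in the 2 of plate 2. Hcn3 averaged 26.5 ± 8.91 CPM in hairy and 35.4 ± 5.80 CPM in glabrous Nefh-high neurons, lower in 6 of 7 litters, and its log2 change was -0.39 ± 0.21 (unadjusted p = 0.0846, adjusted p = 0.838 by edgeR). Hcn4 averaged 9.86 ± 6.42 CPM in hairy and 6.09 ± 1.74 CPM in glabrous Nefh-high neurons, higher in 5 of 7, with a log2 change of 0.67 ± 0.42 (adjusted p = 0.858 by edgeR). edgeR called 0 of 12087 genes here (0.0%), 729 had an unadjusted p under 0.05 and DESeq2 called 89.

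In Nefh-low neurons 5 litters could be compared, several by 1 cell. The log2 changes of Hcn2, Hcn3 and Hcn4 were 1.16 ± 1.09, 0.72 ± 1.16 and -0.73 ± 1.04 (adjusted p = 0.995 each by edgeR), while the median over all genes was 0.56. The 1 glabrous Nefh-low cell of litter L had weak neuronal RNA and no Hcn2 or Hcn3 count. Without such cells the values were 0.80, 0.032 and -0.96 over 4 litters. edgeR called 0 of 11055 genes (0.0%), 55 had an unadjusted p under 0.05 and DESeq2 called 4.

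The difference between the skin effects of the classes was tested as an interaction over 31 sums of 10 litters. Only litters E_F_G, H and O held both skins in both classes, and several sums were 1 cell. Several sums of a litter entered as separate values, so the SE is not the spread of the interaction over 10 litters. The interaction was -0.93 ± 0.75 for Hcn2, -0.83 ± 0.63 for Hcn3 and 1.16 ± 0.69 for Hcn4 on the log2 scale (adjusted p = 0.941 each by edgeR). The median over all genes was -0.35. edgeR called 0 of 12836 genes (0.0%), 612 had an unadjusted p under 0.05 and DESeq2 called 29. With standard errors of this size an interaction of 1 log2 unit could not be told from 0.

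**Figure D5:**
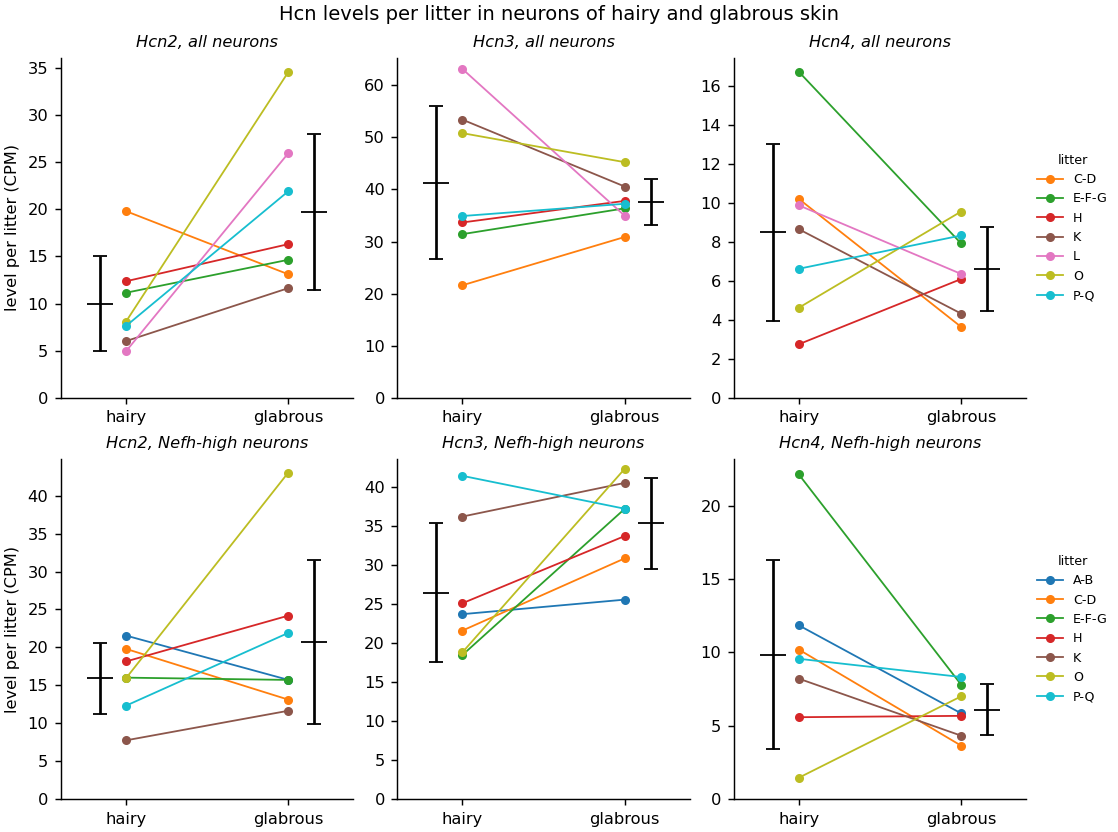
Levels of Hcn2, Hcn3 and Hcn4 (CPM, linear axes from 0) in hairy and glabrous neurons, 1 coloured line per litter, with the mean and SD in black beside each skin. The upper row holds all neurons and the lower row the Nefh-high neurons, 7 litters each. Hcn2 is lower in hairy neurons in 6 of 7 litters above and in 4 of 7 below.

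Of the 4 lists, none had a gene called between the skins, with 9, 6, 12 and 7 genes tested for auxiliary genes, cyclases, phosphodiesterases and channels. Of these, 0, 0, 3 and 1 had an unadjusted p under 0.05 by edgeR, as had 1277 of all 12852 genes tested. The median log2 changes were 0.024, -0.30, -0.16 and -0.097, against -0.019 over all genes.

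Age was compared in glabrous neurons between 7 litters of day 5, mostly on plate 1, and 2 of day 4, mostly on plate 2. Hcn2 averaged 19.95 ± 7.88 CPM at day 5, and the 2 day 4 litters had 21.9 and 11.6 CPM. Hcn3 averaged 36.6 ± 4.40 CPM at day 5, and the day 4 litters had 37.2 and 40.6 CPM. Hcn4 averaged 6.64 ± 1.87 CPM at day 5, and the day 4 litters had 8.32 and 4.32 CPM. The log2 changes were 0.30 ± 0.43, -0.059 ± 0.19 and 0.10 ± 0.41 (adjusted p above 0.99 each by edgeR, with 0 of 15185 genes called, 0.0%, 422 at an unadjusted p under 0.05 and 3 called by DESeq2), and the part of the plate was not tested.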

How the data were processed

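The members, the gene lists and the Nefh threshold were chosen with earlier results of these data known. The deposited table holds expected counts for each gene in single cells, all of them whole, which the authors made with Salmon and the mm10 build after FastQC and cutadapt, per the submitters' processing notes. The sources used here do not give versions, annotation or any length scaling. Counts were summed per litter and group (at least 2 cells, or 1 within a class) and tested with edgeR 4.0.16 (R 4.3.3; TMM, filterByExpr, quasi-likelihood F-test, litter as block, Benjamini-Hochberg over all genes, threshold 0.05). The SE is the log2 change over the square root of F. Ratios were tested with exact sign-flip tests. The procedures were checked on simulated data. DESeq2 1.42.0 was an alternative. The fits use TMM-scaled totals and the means raw totals.

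The litter label was used to pair the sums. Deviations of same-litter sums correlated only weakly or not at all, at -0.02 to 0.22 between classes and at -0.07 to 0.28 between skins. Whether a litter's cells came from separate animals is not known, so p-values cannot be read as spread between animals. In the class and skin tests they measure only how differences within litters vary from litter to litter. By age they measure only the spread between litters. For the interaction they measure the spread of the sums within litters, not that of the interaction from litter to litter. Named genes were, by rule, the members, Nefh, the 5 highest and 3 lowest genes by Spearman correlation with each member, and the list members called in either comparison, up to 6 a list. The receptor groups and the set without weakly neuronal cells (under 3000 CPM of the pan-neuronal sum) were formed after seeing the data. Of the receptor groups, 1 of Nefh-high cells is not reported here. The cell labelled with both skins entered no skin comparison. Alternatives covered the Nefh threshold, cells per sum, normalization, filter, tool, litters, plates, covariate and pseudocount.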

Additional observations from a re-analysis of the deposited data

Results flagged for a closer look

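Litter values of each member were checked for a lone extreme in 27 groups of litters, and chance marks about 1 in 20 such groups. Marked values numbered 3. Hcn3 in the Nefh-high sum of litter L, which was 2 cells, was 50.04 CPM, and its gap to the next litter made up 0.602 of the range of the 7. Hcn2 in the glabrous Nefh-high sum of litter O was 43.1 CPM, with a gap of 0.601 of the range. Hcn4 in the glabrous Nefh-low sum of litter O, which was 1 cell, was 19.9 CPM, with a gap of 0.826 of the range over 5 litters.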

How the results depend on the processing

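The litter is a replicate block. With no replicate block the log2 change of Hcn2 between the classes was 2.29 and between the skins -1.02, and no member's call changed. Over 24 alternatives the Hcn2 class difference ran from 1.62 to 2.88, and it lost its call in the litters of plate 1 (2.20), in glabrous cells (2.88) and in hairy cells alone (1.62). Genes called between the classes numbered 1340 with the marker covariate, 620 on plate 1, 1215 on plate 2, 33 in glabrous and 775 in hairy cells. Hcn3 between the classes was called at -0.40 without weakly neuronal cells, and it was 0.12 in glabrous cells alone and 0.33 as a mean of log2 values over cells. Hcn4 between the classes was 0.29 at a 250 CPM threshold, 0.25 with 1000 against under 250 CPM, 0.40 in hairy cells and 0.24 as a mean of log2 values. Between the skins, Hcn3 was -0.28 on plate 1 and -0.077 with sums of 1 cell, and Hcn4 -0.31 on plate 2; in Nefh-high neurons Hcn2 was 0.23 on plate 1 and Hcn4 -0.52 on plate 2. Genes called between the skins numbered 342 with no filter, 337 with DESeq2, 5 with the covariate, 0 on each plate, 1 with sums of 1 cell and 21 with 3 cells. Leaving out litters in turn gave -0.036 to 0.12 for Hcn3 and 0 to 15 genes called between the skins, -0.37 to 0.11 for the skin difference of log2 Hcn3 to Hcn4, and, by age, -0.063 to 0.76 for Hcn2, -0.16 to 0.046 for Hcn3 and -0.27 to 0.59 for Hcn4. Litter K turned the signs by age, K and L that of Hcn3 between the skins, and C_D and E_F_G that of the ratio. Genes called between the skins numbered 0 without K, O or P_Q, 1 without L, 2 without E_F_G and 7 without H. The cause of these changes was not tested. In 386 other pairs of a result and an alternative, direction and call were kept or a count of genes called stayed within 1.5 times its value. Hcn2 in Nefh-low and Hcn4 in all sums rest on few counts, which limits small differences. In Nefh-low skin sums Hcn2 fell under the filter without litters E_F_G or M and on plate 2, and Hcn2 and Hcn4 at the 250 CPM threshold, and the test with at least 2 cells had too few litters there.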
